A study of Mus musculus with 4 samples.

Results

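Ferritin and cellular iron handling covered 10 genes of the 27267 genes in the deposited files. Fth1 and Ftl1 encode the ferritin chains, Tfrc, Slc11a2, Steap3 and Steap4 act in iron uptake, Slc40a1 exports iron, Hmox1 breaks down haem, and Ireb2 and Aco1 encode the iron regulatory proteins. The genes were chosen by symbol from the pathway with earlier results of these libraries known, among them the low Fth1 and Steap4 ratios under hsa-miR-199a-3p, so their values are a description and carry no test. All 10 passed the filter on low values that 13502 genes passed, a mean level of 1 CPM or more over the 4 libraries (CPM is the read count scaled to the library total, here with TMM adjustment).

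RNA was sequenced from heart muscle cells of CD1 mice at postnatal day 1, grown in culture and collected 72 h after transfection. The mock cells carried no mimic. The other dishes received 50 nM of a microRNA mimic by reverse transfection with Lipofectamine RNAiMAX: hsa-miR-199a-3p, hsa-miR-590-3p, or cel-miR-67, a Caenorhabditis elegans sequence commonly used as a control. Each condition had 1 library, with the number of animals behind it not given in the sources used here. Without replicates no difference has a replicate check and no p-value was computed. For each of the human mimics, a gene met the criterion, and only then is said to have risen or fallen, when its CPM differed by a factor of 2 or more from each of the controls, and to the same side. Comparisons of cel-miR-67 with mock, and of one human mimic with the other, rest on 1 ratio and the same factor. The 95% intervals of ratios are exact conditional binomial intervals. They cover counting error only, and not differences between dishes, animals or library preparations. Sequenced PCR products without molecular identifiers are not independent molecules, so the intervals can be too narrow even for counting error.

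Ferritin is a hollow protein shell built of heavy (Fth1) and light (Ftl1) chains. The heavy chain oxidises ferrous iron and the light chain favours mineral formation inside the shell. Transferrin-bound iron enters cells through the transferrin receptor, is reduced in the endosome by a STEAP reductase, leaves it through Slc11a2, and is stored, used in haem and iron-sulphur clusters, or exported by Slc40a1. When iron is scarce the iron regulatory proteins bind iron-responsive elements, which blocks translation of the ferritin transcripts and protects the Tfrc transcript from decay. Sequencing of RNA reads the amount of these transcripts and not their translation. In the heart, uptake through the transferrin receptor and storage in ferritin are both needed for normal cardiomyocyte function.

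The largest differences among the genes were seen under hsa-miR-199a-3p, and the mature mouse microRNA of that name is shown for its seed, bases 2 to 8, in capitals. The sequence is from RefSeq (GRCm38.p6), where it lies at chr1:162217883-162217904 on the plus strand and at chr9:21496498-21496519 on the minus strand, and where mmu-miR-199b-3p has the same 22 bases. The sequence of the transfected mimic itself was not used here, and miR-590-3p is given by name only.
mmu-miR-199a-3p: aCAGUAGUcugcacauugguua

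The 250 bases before a RefSeq transcript start are shown for the heavy and the light chain, whose transcripts differed in opposite directions, and for Steap4, the other gene that met the criterion. Capitals mark matches to GGGCGG, the GC box, or to CCAAT, the CCAAT box, on either strand. The windows are from RefSeq (GRCm38.p6): Fth1 at chr19:9982396-9982645 on the plus strand, the downstream one of 2 listed starts, Ftl1 at chr7:45459887-45460136 on the minus strand, and Steap4 at chr5:7960222-7960471 on the plus strand, each printed in the direction of transcription.
Fth1: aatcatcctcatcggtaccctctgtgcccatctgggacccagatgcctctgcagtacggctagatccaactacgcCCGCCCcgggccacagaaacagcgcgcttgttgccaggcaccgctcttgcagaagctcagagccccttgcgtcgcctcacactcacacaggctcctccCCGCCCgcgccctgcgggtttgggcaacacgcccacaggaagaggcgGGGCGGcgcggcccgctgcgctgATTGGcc
Ftl1: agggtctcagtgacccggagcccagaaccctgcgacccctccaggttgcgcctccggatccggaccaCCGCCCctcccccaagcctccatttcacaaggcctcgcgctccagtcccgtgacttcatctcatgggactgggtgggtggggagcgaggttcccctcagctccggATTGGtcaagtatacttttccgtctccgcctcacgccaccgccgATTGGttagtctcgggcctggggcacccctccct
Steap4: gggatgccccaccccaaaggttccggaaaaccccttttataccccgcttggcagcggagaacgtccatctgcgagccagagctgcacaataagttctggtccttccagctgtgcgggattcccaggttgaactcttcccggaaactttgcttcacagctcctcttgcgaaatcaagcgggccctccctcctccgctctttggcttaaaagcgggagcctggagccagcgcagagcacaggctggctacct
The Fth1 window held 3 GC boxes and 1 CCAAT box, the Ftl1 window 1 GC box and 2 CCAAT boxes, and the Steap4 window neither. Windows were found for 7 of the 10 genes, 12 windows in all: Fth1, Ftl1, Tfrc, Steap3, Steap4, Ireb2 and Aco1. A GC box lay in 7 of those 12 windows, against 32.7% of 32851 windows of the same length, and a CCAAT box in 4, against 33.8%. The core of the antioxidant response element, TGACNNNGC on either strand, lay in 0 of the 12 and in 10.2% of all windows. These matches describe letters in a window and no binding was measured.

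Libraries held 31638930 to 38745528 reads, of which 67.6 to 68.7% were placed uniquely, and a count of 0 allows at most 0.0745 to 0.0987 CPM. All 10 cardiomyocyte markers listed (Myh6 and Tnnt2 among them) were detected. Their summed level was 57159 CPM in mock, 50741 in cel-miR-67, 39453 in hsa-miR-590-3p and 38767 in hsa-miR-199a-3p. Of these 10 markers 7 were below both controls under hsa-miR-199a-3p, and Ryr2 and Ttn fell. Another 2, Myl7 and Nkx2-5, were above both. Markers of erythroid cells, which hold much iron, summed to 0.494 to 0.538 CPM, with Hbb-bt, Hbb-bs and Ahsp at 0 in every library. The 14 macrophage markers all had reads in every library, and their sum was 27.7 CPM in mock and 8.97 to 10.5 CPM in the other libraries. The 8 fibroblast markers summed to 9945 to 11696 CPM, but their median was 274 CPM in mock, 365 in cel-miR-67, 237 in hsa-miR-590-3p and 105 in hsa-miR-199a-3p. Under hsa-miR-199a-3p 5 of these 8 were below both controls, 3 were above both, and Postn fell. The part of these cells in the values of the 10 genes was not tested. In bulk RNA, fewer cells of a type and less RNA per cell cannot be told apart.

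Fth1 transcripts fell under hsa-miR-199a-3p. The Fth1 level was 909 CPM in mock, 895 CPM in cel-miR-67, 820 CPM in hsa-miR-590-3p and 100.1 CPM in hsa-miR-199a-3p. The reads behind these levels were 27616, 29934, 29003 and 4033, of which 18275, 19631, 18156 and 2645 were placed uniquely. The first 3 libraries lay close together and hsa-miR-199a-3p lay far below them. Its Fth1 level was 8.94-fold lower than in cel-miR-67 (95% interval 8.65 to 9.24) and 9.08-fold lower than in mock (8.78 to 9.38), log2 ratios of -3.16 and -3.18. Among the 13502 genes these log2 ratios ranked 2 from the lowest against each control. Ratios from uniquely placed reads alone were 0.112 against cel-miR-67 and 0.109 against mock, beside 0.112 and 0.110 from all reads. By all reads the mock and cel-miR-67 levels of Fth1 did not differ beyond the counting interval (ratio 0.985, 0.969 to 1.00). By uniquely placed reads cel-miR-67 was slightly lower (0.976, 0.956 to 0.996). The hsa-miR-590-3p level lay slightly below both (0.917 of cel-miR-67 and 0.903 of mock).

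Ftl1, the light chain, had a different order of libraries. The Ftl1 level was 539 CPM in mock, 757 CPM in cel-miR-67, 617 CPM in hsa-miR-590-3p and 1117 CPM in hsa-miR-199a-3p. Behind these levels lay 16390, 25312, 21795 and 44989 reads, of which 31.5 to 33.7% were placed uniquely. The library of hsa-miR-199a-3p was the highest and mock the lowest, with the controls themselves 1.40-fold apart (1.38 to 1.43). Under hsa-miR-199a-3p the Ftl1 level was 1.48 times that in cel-miR-67 (1.45 to 1.50) and 2.07 times that in mock (2.03 to 2.11), so the criterion was not met. With uniquely placed reads the ratio to mock was 1.97. Under hsa-miR-590-3p the level was 0.815 of cel-miR-67 and 1.14 times mock, between the controls.

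**Figure D1:**
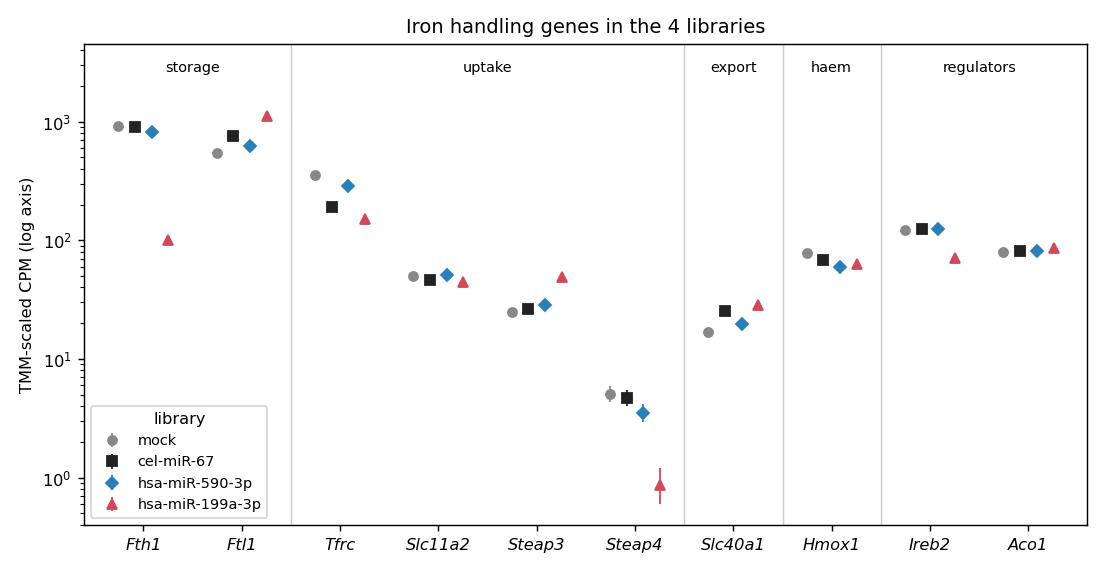
TMM-scaled CPM (log axis) of the 10 iron handling genes in the 4 libraries, 1 point per library, grouped by role, with bars for the 95% counting interval where it is wider than the point. Fth1 and Steap4 lie far lower in hsa-miR-199a-3p (100.1 and 0.869 CPM) than in the other 3 libraries, and Ftl1 is highest there (1117 CPM).

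Set per length, the balance of the ferritin transcripts was inverted in the hsa-miR-199a-3p library. RPKM (reads scaled to transcript length and library total, as deposited) of Fth1 was 1007.91 in mock, 1009.05 in cel-miR-67, 972.09 in hsa-miR-590-3p and 120.2 in hsa-miR-199a-3p. The Ftl1 values were 525.39, 749.41, 641.6 and 1177.63 RPKM in the same order. The heavy to light ratio per length was therefore 1.92 (1.88 to 1.96) in mock, 1.35 (1.32 to 1.37) in cel-miR-67, 1.52 (1.49 to 1.54) in hsa-miR-590-3p and 0.102 (0.0988 to 0.105) in hsa-miR-199a-3p. Heavy chain transcripts were the more abundant kind in the first 3 libraries and the less abundant in the last. They made up 65.7%, 57.4%, 60.2% and 9.26% of the summed ferritin RPKM. That sum itself was 1533.3 in mock, 1758.46 in cel-miR-67, 1613.69 in hsa-miR-590-3p and 1297.83 in hsa-miR-199a-3p, a far narrower range than that of Fth1. With uniquely placed reads the heavy to light ratio was 3.77, 2.80, 2.84 and 0.210, higher in each library than with all reads and again under 1 only in hsa-miR-199a-3p.

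In the order of all genes by RPKM, Fth1 stood at 34 in mock, 30 in cel-miR-67, 31 in hsa-miR-590-3p and 583 in hsa-miR-199a-3p. Ftl1 stood at 109, 54, 57 and 25. Related records held few or no reads: Fthl17 and Ftmt, the mitochondrial ferritin, had 0 reads in each library, and a light chain-like gene model had 6 to 17.

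**Figure D2:**
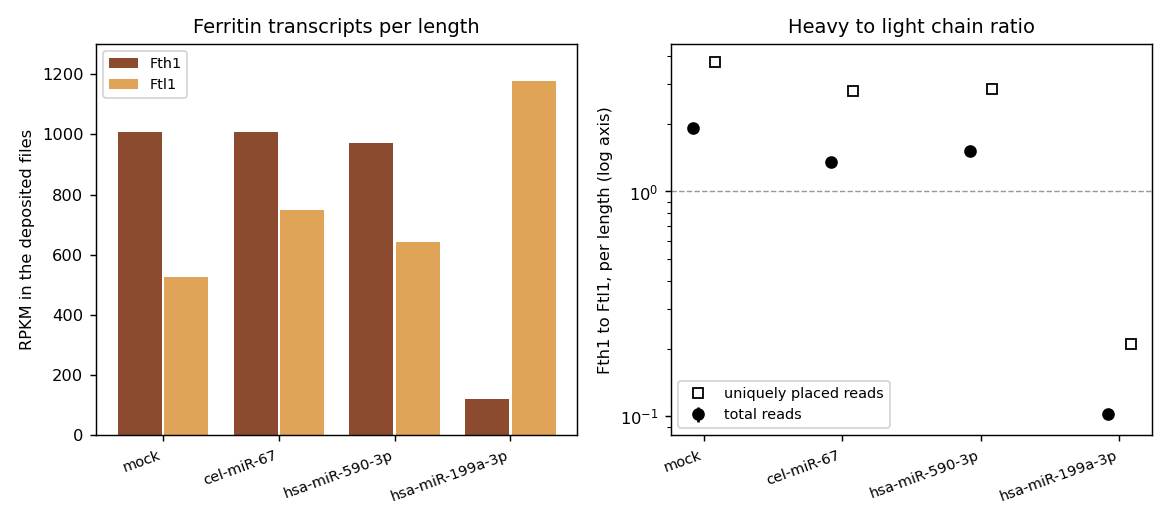
Left, deposited RPKM of Fth1 and Ftl1 in each library (bars from 0). Right, the ratio of Fth1 to Ftl1 per length on a log axis, from total reads (filled) and from uniquely placed reads (open), with the dashed line at equal levels. The ratio is above 1 in 3 libraries and 0.102 in hsa-miR-199a-3p, or 0.210 from uniquely placed reads.

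Tfrc, the transferrin receptor, differed most between the controls. The Tfrc level was 358 CPM in mock, 191 CPM in cel-miR-67, 286 CPM in hsa-miR-590-3p and 151 CPM in hsa-miR-199a-3p, from 10872, 6377, 10122 and 6072 reads, all of them placed uniquely. Mock and hsa-miR-590-3p were the higher libraries, cel-miR-67 and hsa-miR-199a-3p the lower. Against mock the level was 0.421 (0.408 to 0.435) under hsa-miR-199a-3p and 0.533 (0.517 to 0.550) under cel-miR-67. Against cel-miR-67 it was 0.791 (0.763 to 0.819) under hsa-miR-199a-3p and 1.50 (1.46 to 1.55) under hsa-miR-590-3p. Tfrc thus met the criterion under neither mimic. Its difference between the controls, a log2 ratio of -0.91, was larger than that of hsa-miR-199a-3p from cel-miR-67, -0.34.

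Slc11a2, the divalent metal transporter that carries iron out of the endosome, was the member with little difference in its total and a different make-up of records. The summed level was 50.3 CPM in mock, 46.6 CPM in cel-miR-67, 51.2 CPM in hsa-miR-590-3p and 44.9 CPM in hsa-miR-199a-3p. The highest library was 1.14 times the lowest. The gene is known to make transcripts with and without an iron-responsive element, and the files list a transcript variant 1 of 4373 bases and a variant 2 of 3041 bases without saying which is which. In the same order of libraries variant 1 had 36.2, 28.9, 36.8 and 27.6 CPM and variant 2 had 14.1, 17.7, 14.4 and 17.3 CPM. Mock paired with hsa-miR-590-3p, and cel-miR-67 with hsa-miR-199a-3p, on each variant. Variant 2 took 28.1% of the reads in mock and 28.1% in hsa-miR-590-3p, but 38.02% in cel-miR-67 and 38.5% in hsa-miR-199a-3p.

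Of the Slc11a2 reads 40.6 to 43.9% were placed uniquely, so the uniquely placed reads were also examined alone. Of 662, 683, 782 and 734 such reads in mock, cel-miR-67, then hsa-miR-590-3p and then hsa-miR-199a-3p, variant 2 held 23.7% (exact 95% binomial interval 20.5 to 27.1%), 33.5% (30.0 to 37.2%), 23.5% (20.6 to 26.7%) and 33.7% (30.2 to 37.2%). The intervals of the higher pair of libraries did not overlap those of the lower pair. Against mock, variant 1 was 0.817 (0.718 to 0.929) and variant 2 1.33 (1.08 to 1.63) in cel-miR-67 by uniquely placed reads. For hsa-miR-199a-3p the same ratios were 0.728 (0.641 to 0.826) and 1.19 (0.968 to 1.46), the latter with an interval that includes 1. For Tfrc, the other uptake gene with a known iron-responsive element, the libraries fell into the same pairs, with mock and hsa-miR-590-3p the higher one. No difference here involves a replicate, and the control mimic is on the same side as hsa-miR-199a-3p.

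**Figure D3:**
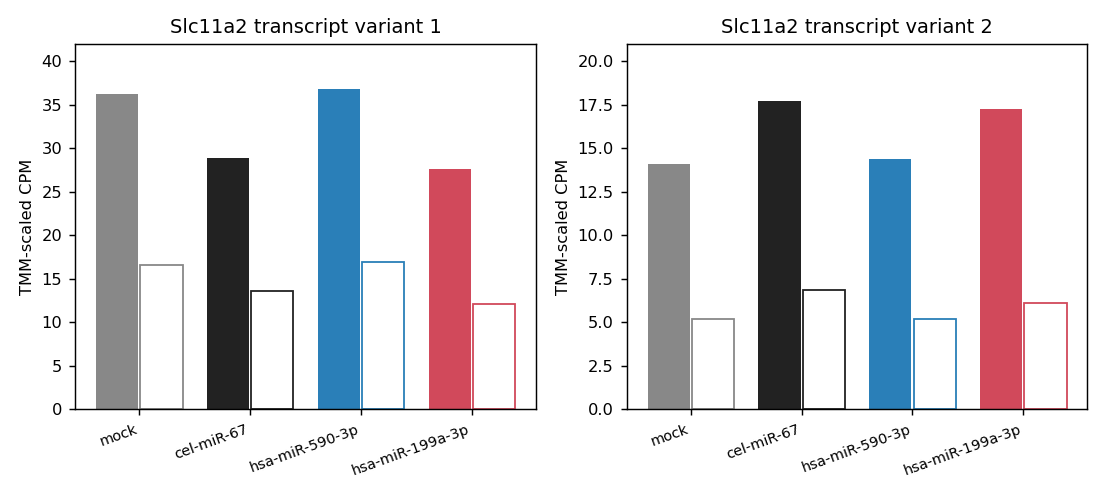
TMM-scaled CPM of the transcript variants of Slc11a2 by library, filled bars from total reads and open bars from uniquely placed reads, with a different vertical scale in each panel. Variant 1 is lower and variant 2 higher in cel-miR-67 and hsa-miR-199a-3p than in mock and hsa-miR-590-3p.

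Steap3, the ferrireductase of the endosome, lay below the criterion under hsa-miR-199a-3p. The Steap3 level was 24.9 CPM in mock, 26.4 CPM in cel-miR-67, 28.6 CPM in hsa-miR-590-3p and 49.1 CPM in hsa-miR-199a-3p, from 757, 882, 1012 and 1977 reads. Only hsa-miR-199a-3p stood apart, at 1.86 times cel-miR-67 (1.72 to 2.02) and 1.97 times mock (1.81 to 2.15). Of the Steap3 reads 9, 6, 8 and 12 were placed uniquely. The gene's value therefore rests on reads not counted as uniquely placed. These may include reads shared between its 2 records, which was not tested. The ratio from the uniquely placed reads had an interval of 0.577 to 5.39 against cel-miR-67. Most Steap3 reads were counted to variant 2 (692, 778, 931 and 1851), with 65, 104, 81 and 126 for variant 1.

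Steap4, a plasma membrane and endosomal metalloreductase, fell under hsa-miR-199a-3p. Its level was 5.07 CPM in mock, 4.72 CPM in cel-miR-67, 3.51 CPM in hsa-miR-590-3p and 0.869 CPM in hsa-miR-199a-3p, from 154, 158, 124 and 35 uniquely placed reads. The hsa-miR-199a-3p library was 5.44-fold below cel-miR-67 (3.75 to 8.08) and 5.83-fold below mock (4.02 to 8.68), log2 ratios of -2.42 and -2.52. These ranked 5 and 11 from the lowest of all 13502 genes. The level in hsa-miR-590-3p was 0.743 of cel-miR-67 (0.582 to 0.945) and 0.692 of mock (0.542 to 0.883), and the controls did not differ beyond the counting interval (0.932, 0.742 to 1.17). Per length and with all reads, Steap3 exceeded Steap4 by 5.52 times in mock, 6.24 in cel-miR-67, 9.14 in hsa-miR-590-3p and 63.1 (45.2 to 90.8) in hsa-miR-199a-3p. With uniquely placed reads, of which Steap3 had few, the ratio was 0.0656, 0.0424, 0.0722 and 0.383. Steap4 was then the higher gene in each library. However, Steap3 had 2 records and Steap4 had 1, and every Steap4 read was placed uniquely. Reads shared between the Steap3 records may be missing from its uniquely placed count, which was not tested. The ratio from uniquely placed reads therefore cannot decide the order of these genes. Steap4 had the lowest RPKM of the 10 genes in every library.

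Slc40a1, ferroportin, is the known cellular exporter of iron. The Slc40a1 level was 16.9 CPM in mock, 25.2 CPM in cel-miR-67, 19.7 CPM in hsa-miR-590-3p and 28.7 CPM in hsa-miR-199a-3p, from 513, 844, 697 and 1156 uniquely placed reads. The highest library was again hsa-miR-199a-3p and the lowest mock. Against mock the level was 1.70 times (1.53 to 1.89) under hsa-miR-199a-3p, 1.49 times (1.34 to 1.67) under cel-miR-67 and 1.17 times (1.04 to 1.31) under hsa-miR-590-3p. Against cel-miR-67 it was 1.14 times (1.04 to 1.24) under hsa-miR-199a-3p and 0.781 (0.706 to 0.865) under hsa-miR-590-3p. The libraries stood in the same order for Slc40a1 and Ftl1 (hsa-miR-199a-3p, cel-miR-67, hsa-miR-590-3p, mock), and in the reverse order for Tfrc. Per length, the ratio of the importer Tfrc to the exporter Slc40a1 was 14.6 (13.3 to 15.9) in mock, 9.97 (9.23 to 10.8) in hsa-miR-590-3p, 5.19 (4.83 to 5.58) in cel-miR-67 and 3.61 (3.39 to 3.84) in hsa-miR-199a-3p. The intervals did not overlap, and the widest gap between neighbouring libraries lay between hsa-miR-590-3p and cel-miR-67. Macrophages are rich in Slc40a1 and Hmox1. Their summed markers were highest in mock, where Slc40a1 was lowest and Hmox1 highest, and their part in these values was not tested.

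Hmox1, haem oxygenase 1, releases iron from haem and is induced by oxidative stress. The Hmox1 level was 78.7 CPM in mock, 68.1 CPM in cel-miR-67, 59.2 CPM in hsa-miR-590-3p and 63.5 CPM in hsa-miR-199a-3p, from 2091 to 2558 reads, all placed uniquely. All 3 libraries with a mimic lay below mock, at 0.866 (0.817 to 0.917), 0.751 (0.708 to 0.797) and 0.807 (0.763 to 0.854). Neither human mimic met the criterion for Hmox1.

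Of the genes for iron regulatory proteins, Ireb2 (IRP2, whose protein is degraded when iron is plentiful) was lower in hsa-miR-199a-3p than in any other library. The Ireb2 level was 122 CPM in mock, 125 CPM in cel-miR-67, 124 CPM in hsa-miR-590-3p and 70.6 CPM in hsa-miR-199a-3p, from 3709, 4185, 4369 and 2843 uniquely placed reads. The first 3 libraries did not differ beyond their counting intervals, with cel-miR-67 at 1.03 times mock (0.981 to 1.07) and hsa-miR-590-3p at 0.988 of cel-miR-67 (0.947 to 1.03). Under hsa-miR-199a-3p the level was 0.564 of cel-miR-67 (0.538 to 0.592) and 0.578 of mock (0.551 to 0.607), short of the criterion. Among all genes these ratios stood at 6.02% and 6.67% from the lowest.

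Aco1 (IRP1, which serves as a cytosolic aconitase when it holds an iron-sulphur cluster) varied least of the 10 genes. The Aco1 level was 79.3 CPM in mock, 81.4 CPM in cel-miR-67, 81.8 CPM in hsa-miR-590-3p and 85.9 CPM in hsa-miR-199a-3p. The highest was 1.08 times the lowest, and mock, cel-miR-67 and hsa-miR-590-3p did not differ beyond counting, nor did hsa-miR-199a-3p from hsa-miR-590-3p (1.05, 0.999 to 1.10). Per length, Ireb2 to Aco1 stood at 1.14, 1.14, 1.12 and 0.611 in the same order of libraries, so that Aco1 transcripts outnumbered Ireb2 transcripts only in the last.

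**Figure D4:**
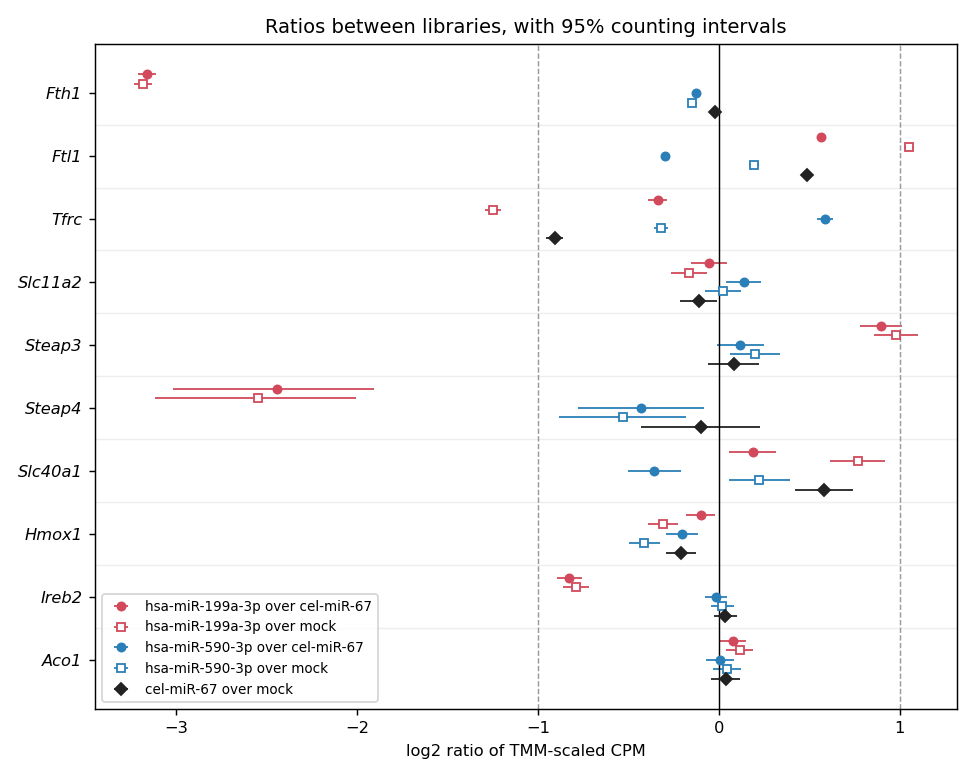
Log2 ratios of TMM-scaled CPM of each iron handling gene with 95% counting intervals, each human mimic against cel-miR-67 (filled) and against mock (open) and cel-miR-67 against mock (diamonds), with dashed lines at a 2-fold difference. Fth1 and Steap4 under hsa-miR-199a-3p lie past the line against both controls, and Tfrc and Ftl1 pass it against mock only (log2 ratios -1.25 and 1.05).

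Under hsa-miR-199a-3p 2 of the 10 genes fell, Fth1 and Steap4, and 0 rose, where 2.34% of all 13502 genes fell and 2.4% rose. The low values of those genes were among the results known when the list was drawn up, so nothing is read from this share. The median log2 ratio of the 10 genes was -0.08 against cel-miR-67 and -0.24 against mock, beside medians of -0.0048 and -0.011 over all genes. The genes lay on both sides of the controls: 6 were below both and 4 above both. Above both were Ftl1, Steap3, Slc40a1 and Aco1.

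Under hsa-miR-590-3p 0 of the 10 genes rose and 0 fell, where 0.356% of all genes rose and 0.23% fell. The median log2 ratio of the 10 was -0.07 against cel-miR-67 and 0.02 against mock. Values furthest from a control were Tfrc at 1.50 times cel-miR-67 and Steap4 at 0.692 of mock. Both comparisons use the same control libraries as those of hsa-miR-199a-3p.

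In cel-miR-67 against mock 0 of the 10 genes were at least 2-fold apart, where 0.652% of all genes were higher and 1.33% lower. Tfrc (0.533), Slc40a1 (1.49) and Ftl1 (1.40) differed most between the controls. In hsa-miR-199a-3p against hsa-miR-590-3p, which share no control, Fth1 (ratio 0.122, 0.118 to 0.126) and Steap4 (0.248, 0.165 to 0.363) were at least 2-fold lower and 0 genes were at least 2-fold higher, where 2.71% of all genes were lower and 1.87% higher. Ftl1 was 1.81 times as high under hsa-miR-199a-3p (1.78 to 1.84), Tfrc 0.527 (0.510 to 0.544) and Ireb2 0.571 (0.545 to 0.599).

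Other genes of iron, haem and metal handling were described from 7 further lists. Of 16 measured genes of iron uptake, storage and export outside the 10, 2 rose and 0 fell under hsa-miR-199a-3p. Over all genes 2.4% rose and 2.34% fell. The list's median log2 ratios were 0.07 against cel-miR-67 and 0.06 against mock, beside -0.0048 and -0.011 over all genes. Slc22a17, the receptor for the siderophore-binding protein lipocalin 2, had 402 reads in mock, 359 in cel-miR-67, 547 in hsa-miR-590-3p and 1254 in hsa-miR-199a-3p, 2.90 times cel-miR-67 (2.58 to 3.27) and 2.35 times mock (2.10 to 2.64). Hfe, the haemochromatosis protein that binds the transferrin receptor, had 68, 66, 116 and 210 reads, 2.64 times cel-miR-67 (1.99 to 3.54) and 2.33 times mock. For both, hsa-miR-199a-3p was highest and hsa-miR-590-3p next. The most abundant gene of the list, the iron chaperone Pcbp2, stood at 0.991 of cel-miR-67 and 1.03 times mock, with 3.24% of its reads placed uniquely.

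The 24 measured genes of iron-sulphur cluster assembly had median log2 ratios of 0.01 against cel-miR-67 and -0.16 against mock under hsa-miR-199a-3p, and 0 of them rose. Hspa9, the mitochondrial chaperone and the most abundant gene of the list, stood at 0.802 of cel-miR-67 and 0.722 of mock. Among 17 metallothioneins and other metal transporters 1 rose and 0 fell, where 2.4% of all genes rose and 2.34% fell. Mt3, a metallothionein, which binds zinc and copper, had 30, 28, 65 and 285 reads, 8.45 times cel-miR-67 (5.72 to 12.9) and 7.17 times mock (4.91 to 10.8). The zinc transporter Slc39a7, the most abundant of that list, stood at 1.04 and 1.12.

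No gene of the other 4 lists met the criterion under hsa-miR-199a-3p, and none of the 7 lists held a gene that met it under hsa-miR-590-3p. Over all genes 2.4% rose and 2.34% fell under hsa-miR-199a-3p, and 0.356% and 0.23% under hsa-miR-590-3p. The other 4 lists held 11 measured genes of systemic iron signalling and turnover of the iron regulatory proteins (median -0.07 against cel-miR-67 and -0.09 against mock), 18 of haem synthesis, transport and breakdown (0.13 and 0.17), 20 of the NRF2 axis and ferroptosis defence (0.06 and -0.09) and 4 further transcripts with iron-responsive elements (-0.45 and -0.31). The most abundant were the BMP receptor Bmpr1a (0.794 of cel-miR-67 and 0.637 of mock), the haem-haemopexin receptor Lrp1 (0.766 and 0.953) and the autophagy receptor Sqstm1 (1.06 and 0.890). All 4 of the transcripts with iron-responsive elements were below both controls under hsa-miR-199a-3p, where 41.9% of all genes were. Epas1 among them was near mock, at 0.945. Of the members described above with such elements, Fth1 and Tfrc were also below both controls, and the Slc11a2 total was slightly below both (0.964 and 0.892). Ftl1 was above both (1.48 and 2.07), and so was the exporter Slc40a1 (1.14 and 1.70).

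**Figure D5:**
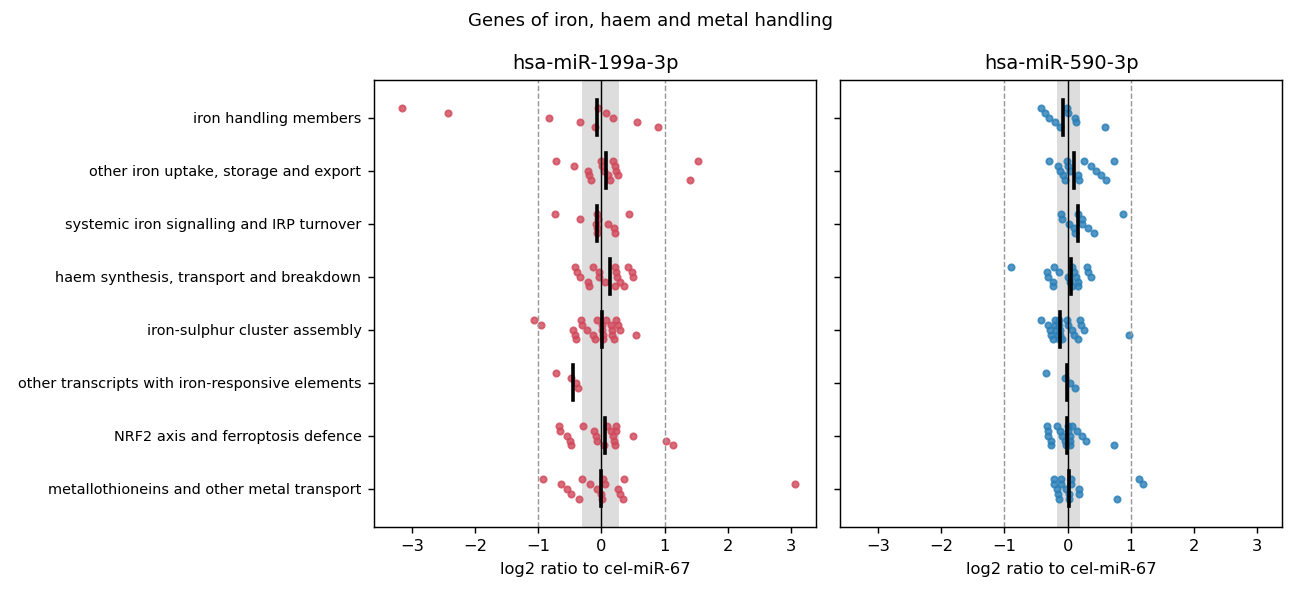
Log2 ratio to cel-miR-67 of each measured gene of the iron, haem and metal lists, 1 point per gene, under hsa-miR-199a-3p (left) and hsa-miR-590-3p (right). Thick ticks are list medians, the grey band holds the middle 50% of all genes measured, and dashed lines mark a 2-fold difference. Fth1 and Steap4 lie at the far left and Mt3 at the far right of the hsa-miR-199a-3p panel.

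Likeness to Fth1 was measured as the Euclidean distance between log2 CPM values centred on their mean over the 4 libraries, among the 2075 genes whose mean level reached 100 CPM, Fth1 included. The nearest were Cd151, a tetraspanin (distance 0.346), Retreg1, a receptor for autophagy of the endoplasmic reticulum (0.994), and Taok1, a protein kinase (1.09). Cd151 had 9826 reads in mock, 11221 in cel-miR-67, 9690 in hsa-miR-590-3p and 1102 in hsa-miR-199a-3p, with 4.92% of them placed uniquely. Retreg1 had 6071, 6942, 6808 and 2040 reads, and Taok1 5483, 6133, 6320 and 1996. These genes were picked for their profile over the same libraries, so a low hsa-miR-199a-3p value in each of them follows from the choice. Log2 ratios of hsa-miR-199a-3p to cel-miR-67 were -3.62 for Cd151, -2.03 for Retreg1 and -1.89 for Taok1, beside -3.16 for Fth1.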

How the data were processed

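RNA was sequenced in 4 libraries of CD1 mouse cardiomyocytes, grouped by the treatment in the labels. Libraries were made from total RNA with the TruSeq RNA-seq kit, per the labels' protocols. Per the file headers, the deposited files give for each of 36065 RefSeq records the count of total gene reads, the count of unique gene reads, the gene length in bases and the RPKM that the authors computed from total reads. CASAVA 1.8 and mm8 are named, per the submitters' processing notes, without a role. The program that mapped reads and the use of strand in counting are not given in the sources here. Sequence tables and gene names are from RefSeq (GRCm38.p6), and their coordinates apply to that assembly only.

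Counts were summed over the records of a gene (27926 records named by accession, 8139 by the file's symbol), scaled by TMM (edgeR 4.0.16 in R 4.3.3) and turned into log2 CPM with a prior count of 0.5. With 0 residual degrees of freedom no count model was fitted. The calling steps were tested on simulated data. Alternatives were total-count scaling, DESeq2 1.42.0 size factors, uniquely placed reads, deposited RPKM (pseudocount 0.05), a prior count of 2, a minimum mean of 5 CPM or none, the most abundant record, and other uses of the controls. Intervals used scipy 1.17.1 in Python 3.11.15.

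The members, gene lists, criterion and alternatives were chosen with earlier results of these data known, and GC and CCAAT boxes were added after the windows had been seen. All 10 members are named. From each other list up to 2 genes per direction and mimic past the criterion are named where the higher library held 50 reads or more, with the most abundant gene, and the 3 genes nearest to Fth1. Proteins, transcripts and seed matches were not used here. Some genes picked by this rule are not reported here.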

Additional observations from a re-analysis of the deposited data

How the results depend on the processing

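The count of members past the criterion under hsa-miR-199a-3p was 2 (Fth1 and Steap4) in 9 of the 11 alternatives. It was 1 at a minimum mean of 5 CPM, which removes Steap4, and 4 with mock as the only control, which adds Ftl1 (higher) and Tfrc (lower). Of all genes 1.51% were then higher and 2.12% lower at 5 CPM, and 3.95% and 3.73% with mock alone, beside 2.40% and 2.34% in the main setting. Against hsa-miR-590-3p the count of members was 2, and 1 at the minimum of 5 CPM. For hsa-miR-590-3p and for cel-miR-67 against mock it was 0 in every alternative run. With total-count scaling the median log2 ratio of all genes for hsa-miR-199a-3p over mock moved from -0.011 to 0.10, and the genes meeting the criterion became 3.06% higher and 1.78% lower, and for hsa-miR-590-3p 0.474% higher and 0.170% lower. Of 360 alternative log2 ratios of the members 289 stayed within the counting interval, 71 moved and 0 reversed a called value. Small ratios changed sign in some alternatives: Fth1 and Steap3 in cel-miR-67 over mock, Slc11a2 under hsa-miR-199a-3p, Steap3 in hsa-miR-590-3p over mock and Ireb2 in hsa-miR-590-3p over cel-miR-67. With uniquely placed reads, 9 in mock and 12 in hsa-miR-199a-3p, Steap3 did not pass the filter. Its log2 ratio over mock under hsa-miR-199a-3p was then 0.03 in place of 0.98. No paired analysis was possible because each condition had 1 library. For the same reason no library could be left out. Depth limits Steap4 most, with 35 reads in its lowest library.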

Other observations

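Some further genes of the iron and metal lists did not meet the criterion and were picked after their values had been seen. Trf, the iron carrier transferrin and ligand of the receptor encoded by Tfrc, had 866 reads in mock, 613 in cel-miR-67, 736 in hsa-miR-590-3p and 448 in hsa-miR-199a-3p. After scaling its libraries stood in the same order as those of Tfrc, with cel-miR-67 at 0.643 of mock (0.579 to 0.714) and hsa-miR-199a-3p at 0.390 of mock (0.347 to 0.438). Fbxl5, whose product marks Ireb2 protein for degradation when iron is plentiful, had 1188, 1080, 1426 and 781 reads in the same order of libraries, 0.601 of cel-miR-67 and 0.496 of mock under hsa-miR-199a-3p, with 25.3% of reads placed uniquely. Cisd2, an iron-sulphur protein, had 1433, 1235, 1315 and 768 reads, 0.516 of cel-miR-67 and 0.404 of mock under hsa-miR-199a-3p, just short of the criterion against cel-miR-67.

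The controls differed in Mt2, a metallothionein, with 487 reads in mock and 248 in cel-miR-67 (ratio 0.463, 0.395 to 0.540), beside 599 in hsa-miR-590-3p and 284 in hsa-miR-199a-3p. They also differed in Flvcr2, which belongs to a family of haem and choline transporters, with 213 reads in mock and 448 in cel-miR-67 (1.91, 1.62 to 2.26), beside 254 and 427. In both genes, as in Tfrc and in the transcript variants of Slc11a2, mock and hsa-miR-590-3p formed one pair and cel-miR-67 and hsa-miR-199a-3p the other. For such genes a reading of hsa-miR-199a-3p against mock alone would therefore count differences that cel-miR-67 shows as well. Not every gene that differed between the controls paired in this way. Epas1, of the transcripts with iron-responsive elements, had 118 CPM in mock, 183 in cel-miR-67, 177 in hsa-miR-590-3p and 111 in hsa-miR-199a-3p. Gsr, of the NRF2 list, had 49.1, 31.3, 52.2 and 63.4 CPM in the same order. Nqo1, a quinone reductase known as a target of NRF2, had 751, 658, 710 and 1737 reads, 2.19 times cel-miR-67 (2.003 to 2.402) and 1.75 times mock (1.60 to 1.90) under hsa-miR-199a-3p.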
